A study of Mus musculus with 4 samples.

Results

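Brush border digestive enzymes are hydrolases fixed in the microvillus membrane of intestinal epithelial cells. They cut short peptides, disaccharides and phosphate esters at the cell surface, after pancreatic enzymes have acted in the lumen, and transporters then take up the products. In the small intestine they complete digestion, whereas the colon receives little undigested sugar or peptide and is best known for absorbing salt, water and bacterial fatty acids. Here 9 such genes were followed, chosen by gene symbol from the 55203 genes in the transcript tables. They were the meprin genes Mep1a and Mep1b, the peptidase genes Anpep, Enpep, Ace and Dpp4, the disaccharidase genes Sis and Lct, and the phosphatase gene Alpi.

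RNA-seq was carried out on gut tissue from adult male wild-type C57BL/6NTac mice aged 8 to 12 weeks, raised free of specific pathogens (SPF). The 4 libraries comprised 2 labelled as processed with 4 mM RVC (ribonucleoside vanadyl complex, an RNase inhibitor) and 2 labelled as fresh frozen. The protocol attached to every library describes a rinse with RVC, so how the fresh-frozen tissue was handled is known only from its label. Each library has a batch number of its own, so the effects of batch and of handling cannot be told apart. Nothing in the labels says whether the libraries of a group came from different mice. Any test between groups therefore measures only the spread between these libraries, which may be technical.

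The number of sequenced fragments is not known, but the ratio of coverage to FPKM placed the depth of the shallowest library, fresh frozen 1, at 72.6% of the deepest, fresh frozen 2. FPKM, the fragment density along a transcript relative to all mapped fragments, is a level per length and can be compared between genes. The labels give ileum as the tissue and the protocol gives distal colon. Of 17 colon genes, 16 reached 1 FPKM in every library, led by the carbonic anhydrase genes Car4 at 1803 FPKM and Car1 at 1655 FPKM (means over 4 libraries). Of 19 small intestinal genes, 7 did so, led by the retinol-binding protein gene Rbp2 at 76.5 FPKM and the glucose transporter gene Slc5a1 at 61.1 FPKM. Of these 19, 4 genes, Fgf15, Apoa4, Defa17 and Defa22, were listed at 0 throughout. All 10 epithelial markers were at 1 FPKM or more in every library, with Lgals4 at 1791 and Krt8 at 1434 FPKM.

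The 9 enzymes differed widely in level. The meprins were abundant, Ace and Dpp4 intermediate, Anpep and Enpep just above 1 FPKM, and Alpi, Sis and Lct below 1 FPKM in all 4 libraries. Thus 6 of the 9 genes reached 1 FPKM in every library, against 50.5% of the 21553 protein-coding genes. Together Mep1a and Mep1b made up 89.5 ± 1.79% (SD, n = 4) of the FPKM summed over the 9 genes.

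**Figure D1:**
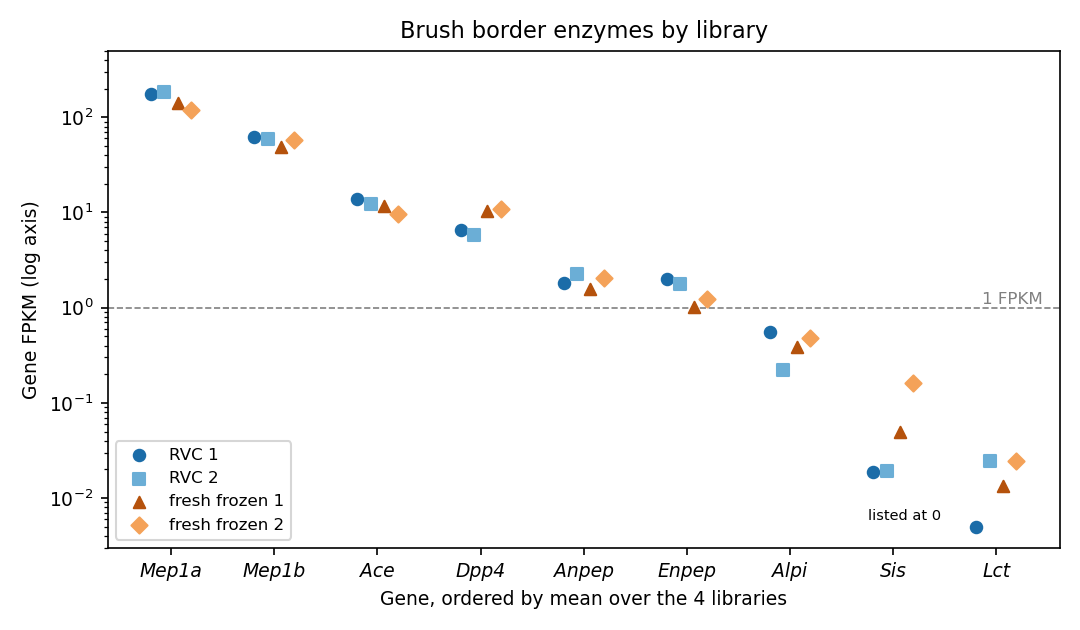
Gene FPKM on a log axis for the 9 enzymes, with 1 symbol per library and genes ordered by their mean. The meprins lie between 48.9 and 184 FPKM, while Alpi, Sis and Lct lie under the dashed line at 1 FPKM in all 4 libraries; the lowest Lct symbol stands for a value listed at 0.

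Sequences before the transcript starts are given for the genes whose starts or levels the results turn on: the most abundant enzyme Mep1a, the nearly silent Sis, and Anpep and Ace, which each have more than 1 start. They were read from the GRCm39 genome, 250 bases each, 5′ to 3′ on the strand of the gene, ending just before the start in GENCODE vM39. Capitals mark matches on either strand to TATAAA (the TATA box), GTTAAT (part of the site of the transcription factor HNF1), TTTATG (the site of CDX factors), AGATAA (the site of GATA factors) or TGANGTCA (the site of CREB and related factors, with N for any base).
Mep1a, minus strand, chr17:43813704-43813953: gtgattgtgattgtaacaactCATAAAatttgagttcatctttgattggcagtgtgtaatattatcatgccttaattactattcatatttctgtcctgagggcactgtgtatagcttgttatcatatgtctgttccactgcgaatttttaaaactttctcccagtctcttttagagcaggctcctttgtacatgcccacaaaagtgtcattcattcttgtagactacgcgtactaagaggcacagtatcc
Sis, minus strand, chr3:72875197-72875446: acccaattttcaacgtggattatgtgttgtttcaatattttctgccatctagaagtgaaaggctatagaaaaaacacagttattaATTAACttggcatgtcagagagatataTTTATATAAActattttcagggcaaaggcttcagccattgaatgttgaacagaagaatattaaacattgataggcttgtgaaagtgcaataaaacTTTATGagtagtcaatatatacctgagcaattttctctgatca
Anpep distal start, minus strand, chr7:79497973-79498222: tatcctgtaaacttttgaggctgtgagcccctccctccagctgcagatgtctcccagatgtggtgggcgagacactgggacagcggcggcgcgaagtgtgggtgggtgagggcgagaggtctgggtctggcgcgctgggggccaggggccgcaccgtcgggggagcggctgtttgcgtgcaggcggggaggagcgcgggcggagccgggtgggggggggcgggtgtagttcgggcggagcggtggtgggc
Anpep proximal start, minus strand, chr7:79492409-79492658: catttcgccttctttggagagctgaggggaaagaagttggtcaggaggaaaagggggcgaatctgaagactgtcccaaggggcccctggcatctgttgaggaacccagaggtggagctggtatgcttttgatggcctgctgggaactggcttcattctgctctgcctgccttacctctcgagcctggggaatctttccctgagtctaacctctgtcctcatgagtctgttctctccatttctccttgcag
Ace somatic start, plus strand, chr11:105858219-105858468: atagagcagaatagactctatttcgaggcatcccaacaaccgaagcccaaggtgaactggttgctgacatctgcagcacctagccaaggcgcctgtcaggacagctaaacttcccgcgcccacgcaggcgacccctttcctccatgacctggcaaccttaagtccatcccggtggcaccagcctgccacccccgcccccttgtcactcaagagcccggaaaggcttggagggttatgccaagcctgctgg
Ace testis start, plus strand, chr11:105865784-105866033: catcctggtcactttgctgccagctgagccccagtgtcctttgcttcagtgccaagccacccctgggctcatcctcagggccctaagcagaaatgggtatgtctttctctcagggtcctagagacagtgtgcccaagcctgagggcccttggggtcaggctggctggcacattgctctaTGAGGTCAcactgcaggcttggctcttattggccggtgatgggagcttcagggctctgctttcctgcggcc
The window of the proximal Anpep start was moved 73 bases upstream, past an exon of the longer transcript. As deposited, that transcript starts at 79492100, the distal Anpep transcript at 79497958 and the somatic Ace transcript at 105858771. Their windows thus lie upstream of the starts whose FPKM is given, with bases between that are not shown. The Mep1a window held 1 match, to the CDX motif on the opposite strand. The Sis window held 4, namely overlapping TATA box matches on both strands, an HNF1 match and a CDX match that begins at position -43, counted back from the start. The Ace testis window held a match to TGANGTCA at position -71, and the Ace somatic window and both Anpep windows held none. A window for the other internal Ace start, that of ENSMUST00000132280, is not shown. It was moved 31 bases upstream and also held none. Among the 21580 protein-coding starts in the annotation (1 canonical start per gene, same length of window), TATAAA was present in 11.9%, GTTAAT in 6.27%, TTTATG in 9.95%, AGATAA in 9.58% and TGANGTCA in 6.85%. Of the canonical windows of the 9 enzymes, 4 held TATAAA (Alpi, Dpp4, Enpep and Sis), 2 held GTTAAT (Mep1b and Sis), 3 held TTTATG (Lct, Mep1a and Sis), 2 held AGATAA (Dpp4 and Lct) and 0 held TGANGTCA. A match is a run of letters, not a bound site. The CDX motif was in the windows both of the most abundant of the 9 genes and of the least abundant pair.

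Mep1a and Mep1b encode the alpha and beta subunits of meprin, a zinc metalloprotease of the astacin family. The beta subunit stays anchored in the membrane, while the alpha subunit loses its anchor on the way to the surface and is held there by beta or secreted. Mep1a (ENSMUSG00000023914, chromosome 17, 43785215 to 43813703, GRCm39) measured 174 and 184 FPKM in RVC 1 and 2 and 141 and 119 FPKM in fresh frozen 1 and 2, a mean of 154 ± 29.9 FPKM (SD, n = 4). Both RVC libraries were higher than both fresh-frozen libraries. Mep1a ranked 364 among the 21553 protein-coding genes by mean level, above 98.3% of them. Mep1b (ENSMUSG00000024313, chromosome 18, 21194980 to 21233256) measured 61.4, 59.3, 48.9 and 58.0 FPKM in the same order, a mean of 56.9 ± 5.52 FPKM (SD, n = 4). Its values stayed close together, with a coefficient of variation of 9.70% against 19.4% for Mep1a. Within a library Mep1a exceeded Mep1b 2.83-fold in RVC 1, 3.10-fold in RVC 2, 2.89-fold in fresh frozen 1 and 2.05-fold in fresh frozen 2. The alpha subunit RNA was thus the more abundant per length in all 4 libraries, by the least in fresh frozen 2.

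The transcripts of the meprin genes gave a simple picture. Mep1a FPKM was divided between ENSMUST00000024707 (2921 nt) and ENSMUST00000117137 (2967 nt), which share the coordinates of all 14 exons in GENCODE vM39 although their lengths in the files differ. The split between them, with 50.3% to 64.5% for the first, thus separates no exon of that annotation. As deposited they differ at both ends, spanning 43785222 to 43813664 for the first and 43785215 to 43813703 for the second. For Mep1b, ENSMUST00000082235 (2286 nt) held 87.3% to 91.6%, and most of the remainder was a 443-nt transcript without an annotated reading frame.

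Ace encodes angiotensin-converting enzyme, which removes dipeptides from the C-terminal end of peptides and makes angiotensin II. It lies on the brush border and also on the endothelium of blood vessels. Ace (ENSMUSG00000020681, chromosome 11, 105858771 to 105880790) measured 14.0 and 12.2 FPKM in the RVC libraries and 11.7 and 9.71 FPKM in the fresh-frozen libraries, a mean of 11.9 ± 1.77 FPKM (SD, n = 4). The groups did not overlap but came close, at 12.2 against 11.7 FPKM. The full-length somatic transcript ENSMUST00000001963 (4906 nt), which encodes the form with a pair of catalytic domains, held 73.8%, 73.9%, 66.0% and 80.4% of Ace FPKM. The testis transcript ENSMUST00000001964 (2418 nt), made from the internal start whose window holds the TGANGTCA match, was listed at 0.00012 FPKM or less in 3 libraries and at 0.327 FPKM in fresh frozen 2. A further transcript with an internal start, ENSMUST00000132280 (3649 nt), carried 2.87, 3.19, 3.70 and 1.25 FPKM. Fresh frozen 2 thus listed the least of this transcript and the most of the testis one. Cufflinks divides shared reads by likelihood, and these transcripts share most of their exons with the somatic form.

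Dpp4 encodes dipeptidyl peptidase 4, which removes N-terminal dipeptides after proline or alanine and inactivates incretin hormones. It is found on epithelia and, as CD26, on T cells and other cells. Dpp4 (ENSMUSG00000035000, chromosome 2, 62160417 to 62242575) measured 6.51 and 5.73 FPKM in the RVC libraries and 10.3 and 11.0 FPKM in the fresh-frozen libraries, a mean of 8.39 ± 2.65 FPKM (SD, n = 4). It was the only 1 of the 6 genes above 1 FPKM whose fresh-frozen values both lay above its RVC values. The coding transcript ENSMUST00000047812 (5268 nt) measured 4.08, 4.39, 6.84 and 7.01 FPKM and so showed the same order. A 1012-nt transcript annotated as a retained intron, ENSMUST00000149306, held 17.0% to 33.7% of the gene sum, and its own values of 2.196, 1.35, 1.75 and 1.91 FPKM overlapped between groups. T cell markers were low in these libraries: of 8, 0 reached 1 FPKM in every library and 0 were listed at 0 throughout, with Cd3g at 0.724 and Trac at 0.538 FPKM. Their sum was 4.59 and 3.33 FPKM in RVC and 3.76 and 3.27 FPKM in fresh frozen, groups that overlapped.

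Anpep and Enpep encode the aminopeptidases N and A, zinc enzymes that remove neutral and acidic residues, respectively, from the N-terminal end of peptides. Anpep is a defining enzyme of the small intestinal brush border. Anpep (ENSMUSG00000039062, chromosome 7, 79471551 to 79510807) measured only 1.80 and 2.28 FPKM in RVC and 1.56 and 2.04 FPKM in fresh frozen, a mean of 1.92 ± 0.309 FPKM (SD, n = 4). The groups overlapped. It stood above 53.4% of protein-coding genes. Its transcript from the proximal start, ENSMUST00000049004 (3422 nt), measured 1.06, 1.41, 1.12 and 1.08 FPKM. The coding transcript from the distal start, ENSMUST00000107392 (3797 nt), measured 0.575, 0.587, 0.321 and 0.794 FPKM. The proximal start was the larger in each library, although the confidence bounds in the files (0.844 to 1.32 for the proximal and 0.595 to 0.992 for the distal transcript) overlapped in fresh frozen 2. Transcripts from the distal start together held 41.4%, 25.8%, 20.7% and 46.8% of Anpep FPKM. The windows before the GENCODE vM39 starts of these transcripts differed in composition, at 71.2% G and C for the distal start and 54.0% for the proximal. Neither window reaches the start of its transcript as deposited. Enpep (ENSMUSG00000028024, chromosome 3, 129062824 to 129126369) measured 2.00 and 1.77 FPKM in RVC and 1.03 and 1.23 FPKM in fresh frozen, a mean of 1.51 ± 0.457 FPKM (SD, n = 4). Both RVC values lay above both fresh-frozen values. The full-length transcript ENSMUST00000029658 (4181 nt) held 64.7% to 91.4% of it.

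**Figure D2:**
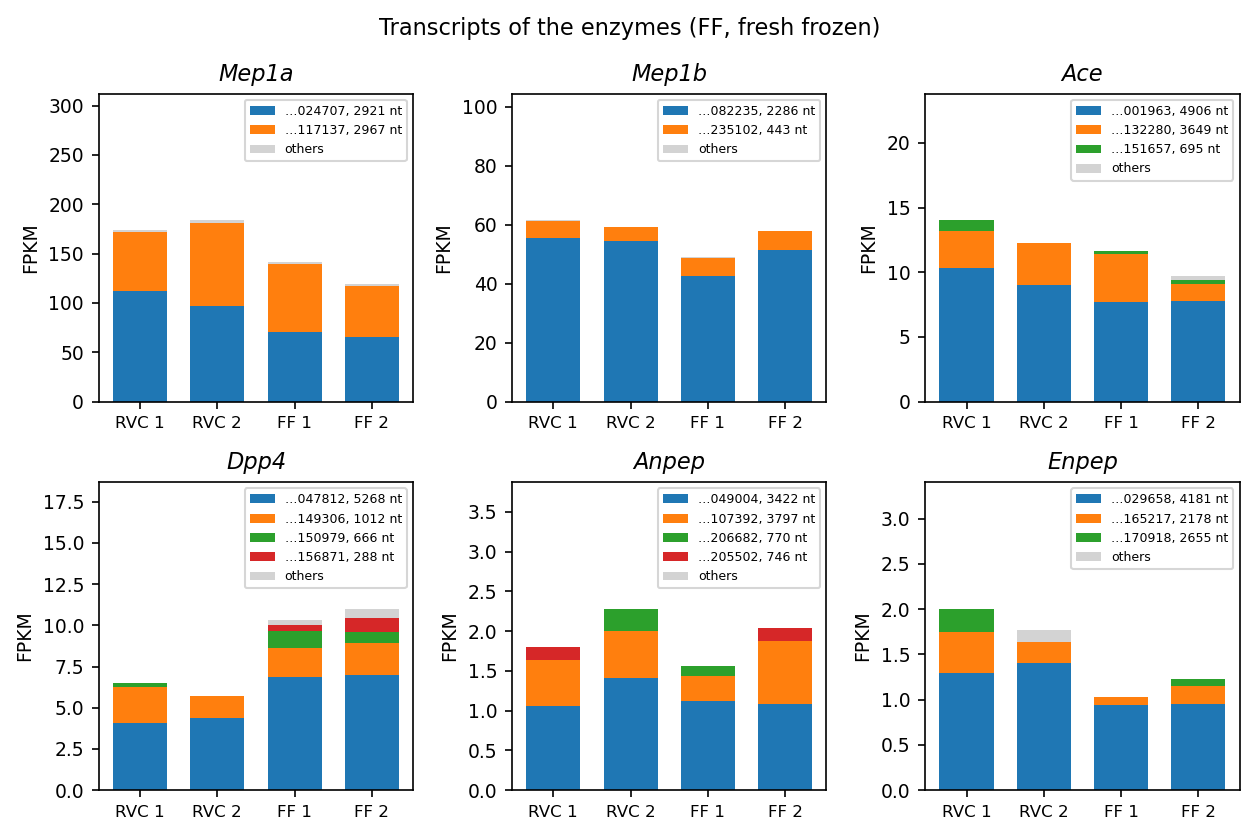
FPKM (y axis, from 0, scaled per gene) of the transcripts of the 6 enzymes above 1 FPKM, stacked by library on the x axis, with the last digits of each transcript identifier and its length. A single full-length transcript forms the largest part of Mep1b, Ace, Dpp4, Anpep and Enpep in every library. Mep1a is divided between a pair with the same exons in GENCODE vM39, whose ends as deposited differ.

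Sis and Lct were the least abundant of the 9 genes. Sis encodes sucrase-isomaltase, which splits sucrose and starch fragments, and Lct encodes lactase, the enzyme of milk sugar digestion that declines after weaning. Sis (ENSMUSG00000027790, chromosome 3, 72795890 to 72875196) measured 0.0190 and 0.0194 FPKM in RVC and 0.0492 and 0.161 FPKM in fresh frozen. Fresh frozen 2 was the highest, and there the reads were assigned mainly to ENSMUST00000167334, with bounds of 0.0630 to 0.161 FPKM. Lct (ENSMUSG00000026354, chromosome 1, 128212493 to 128256055) was listed at 0 in RVC 1 and at 0.0246 FPKM in RVC 2, with 0.0134 and 0.0245 FPKM in the fresh-frozen pair. The upper bound of its full-length transcript was at most 0.0533 FPKM and the lower bound 0, so Lct was not separated from 0 in any library. Alpi encodes intestinal alkaline phosphatase, which removes phosphate from nutrients and from bacterial lipopolysaccharide. Alpi (ENSMUSG00000079440, chromosome 1, 87025724 to 87029328) measured 0.553 and 0.223 FPKM in RVC and 0.390 and 0.475 FPKM in fresh frozen, a mean of 0.410 ± 0.142 FPKM (SD, n = 4). Its lower bounds ran from 0.0992 to 0.360 FPKM, so Alpi was low but above 0 in each library.

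The order of the means was Mep1a, Mep1b, Ace, Dpp4, Anpep, Enpep, Alpi, Sis and Lct. Neighbours in this order were apart beyond their spread where every library of the upper gene exceeded every library of the lower one. That held for Mep1a over Mep1b, Mep1b over Ace (4.78-fold in the means), Dpp4 over Anpep (4.37-fold), Enpep over Alpi (3.68-fold) and Alpi over Sis. The ranges overlapped for Ace and Dpp4, for Anpep and Enpep, and for Sis and Lct.

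Other peptidases and hydrolases, not only those of digestion, were taken from lists by site of action. Of 9 other membrane peptidases with rows in the files, 5 reached 1 FPKM in every library and 2, Folh1 and Tmprss15, were listed at 0. Tmprss15 encodes enteropeptidase, the duodenal activator of trypsinogen. The most abundant were Naaladl1, a dipeptidase-like gene, at 9.61 ± 3.67 FPKM, Cpm, whose product removes basic C-terminal residues, at 9.13 ± 1.09 FPKM, and Ggt1, which starts glutathione breakdown, at 5.34 ± 2.58 FPKM (SD, n = 4 each). None of these came near the meprins.

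Of 10 other membrane hydrolases, 4 reached 1 FPKM in every library, and the phosphatase genes Akp3 and Alppl2 and the sphingomyelinase gene Enpp7 were listed at 0. Nt5e, the ectonucleotidase that makes adenosine from AMP, measured 60.0 ± 6.34 FPKM and the ceramidase gene Asah2 3.36 ± 0.633 FPKM (SD, n = 4 each). Mgam, which encodes maltase-glucoamylase and is the closest relative of Sis, measured 23.0 and 24.0 FPKM in RVC against 32.5 and 36.0 FPKM in fresh frozen. The gene listed as Mgam2-ps (chromosome 6, 40755645 to 40845098), a copy beside Mgam that was looked up after the levels were seen, measured 125, 128, 125 and 113 FPKM. Reads shared between these copies would make the value of each uncertain, and such sharing was not tested. An alpha-glucosidase of this kind was thus listed in all 4 libraries, in which Sis was at 0.161 FPKM or less.

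All 11 intracellular peptidases reached 1 FPKM in every library. The cytosolic dipeptidase gene Cndp2 measured 46.7 ± 9.16 FPKM, the aminopeptidase gene Npepps 27.3 ± 2.12 FPKM and Dpp3 21.1 ± 2.13 FPKM (SD, n = 4 each). Of 15 pancreatic enzyme genes, 8 were listed at 0 throughout and 1 reached 1 FPKM in every library. That gene was the elastase gene Cela1, at 189, 198, 221 and 170 FPKM. Another, the chymotrypsin-like gene Ctrl, stood at 0.220 FPKM. The pancreatic list was therefore represented by 1 gene, at a level above that of Mep1a in every library.

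**Figure D3:**
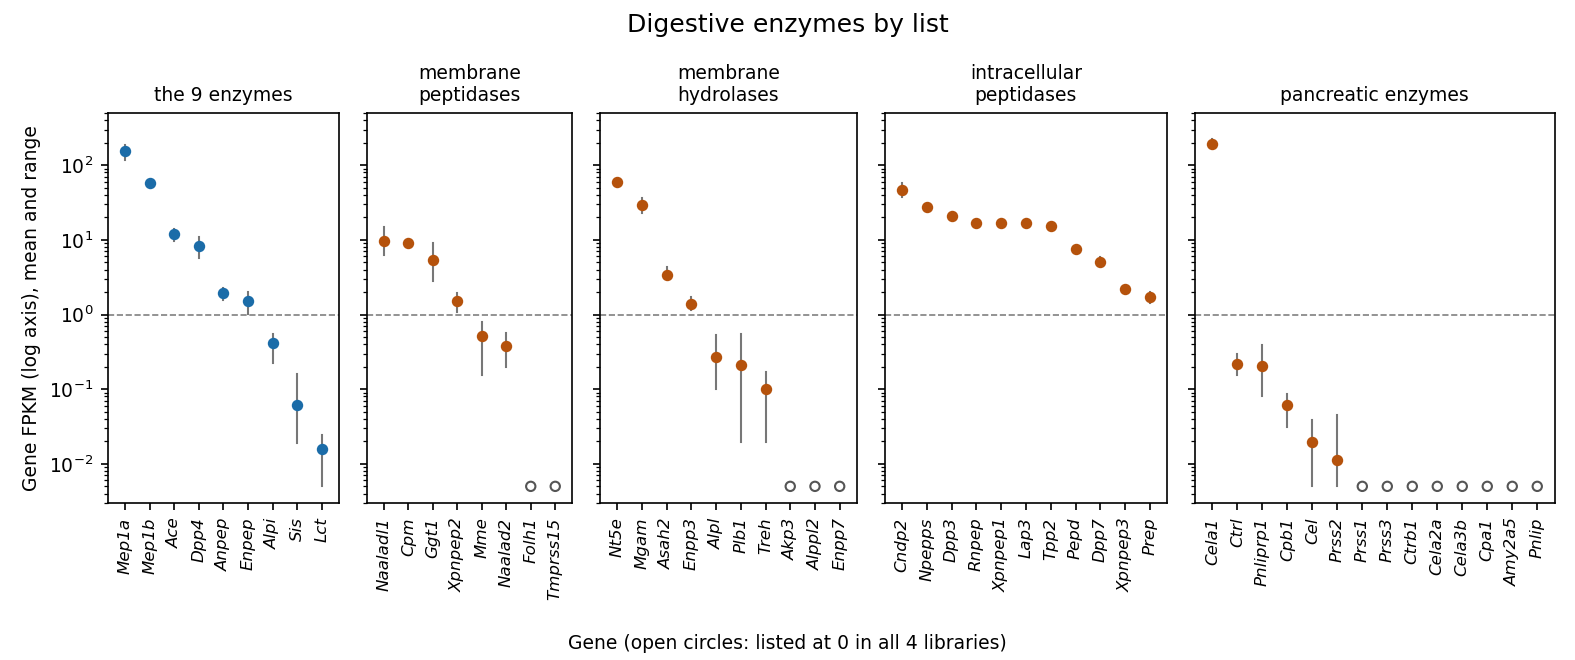
Gene FPKM on a log axis, as the mean (point) and range (line) over the 4 libraries. Shown are the 9 enzymes and genes of 4 lists of other enzymes, not only those of digestion. Open circles mark genes listed at 0, and a line that reaches down to their height includes a library listed at 0. All intracellular peptidases lie above the dashed line at 1 FPKM, while each other list also has genes below it, and Cela1 stands alone among pancreatic enzymes.

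The handling of the tissue was compared with limma on log2(scaled FPKM + 1), a scale that understates differences of genes near 1 FPKM. The fit covered 13774 genes, and 6 of the 9 enzymes had a mean high enough to enter it. None of the 6 passed an adjusted p of 0.05, a threshold that 5 genes or 0.0363% of all passed. Without adjustment 3 of the 6 had a limma p under 0.05, where 18.4% of all genes did. They were 2 genes higher in RVC (9.49% of all genes) and 1 lower (8.92%). The groups did not overlap for 5 of the 6, against 53.2% of all genes. Of these, 4 were higher in RVC (26.6% of all genes) and 1 was lower (26.6%). The median difference, RVC minus fresh frozen, was 0.23 over the 6 genes and 0.0075 over all genes, with 5 of the 6 higher in RVC.

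Dpp4 had the difference of greatest size, at -0.71 (SE 0.127, limma adjusted p = 0.126), lower in RVC in all 4 pairings of libraries. Its mean was 6.12 ± 0.552 FPKM in RVC and 10.7 ± 0.477 FPKM in fresh frozen (SD, n = 2 each), a ratio of 1.74. Mep1a differed by 0.47 (SE 0.119, limma adjusted p = 0.14) and Enpep by 0.44 (SE 0.156, limma adjusted p = 0.209), both higher in RVC in all 4 pairings. Ace differed by 0.28 (SE 0.132, limma adjusted p = 0.298) and Mep1b by 0.18 (SE 0.125, limma adjusted p = 0.443). The Mep1b difference was 0.042 without fresh frozen 1 and 0.32 without fresh frozen 2, and that of Ace was 0.17 without fresh frozen 2. Anpep differed by 0.12 (SE 0.169, limma adjusted p = 0.711) and was higher in RVC in 3 of 4 pairings, and its difference was -0.014 without fresh frozen 1. In tissue, fewer cells of a type and less RNA per cell cannot be told apart. At transcript level, 11 of the 35 transcripts of the 9 genes were tested among 24167 transcripts. None passed an adjusted p of 0.05, as 0.00414% of all transcripts did, and 2 had an unadjusted limma p under 0.05, where 15.7% of all did. These were the coding transcript of Dpp4 and ENSMUST00000024707 of Mep1a, whose lowest limma adjusted p was 0.219. The Mep1a transcript with the same exons in GENCODE vM39, ENSMUST00000117137, differed by 0.25 (limma adjusted p = 0.585), against 0.61 for ENSMUST00000024707. No exon of GENCODE vM39 separates these Mep1a transcripts, although their ends as deposited differ.

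**Figure D4:**
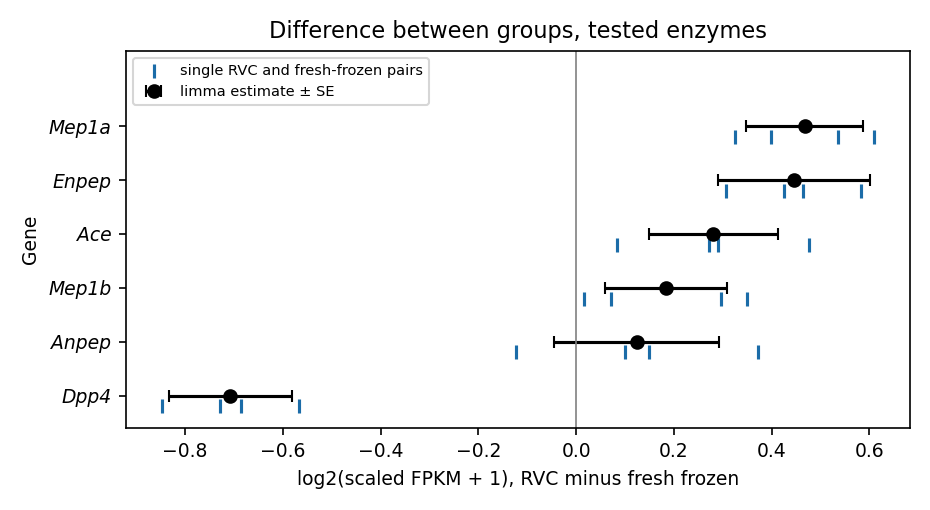
Difference in log2(scaled FPKM + 1), RVC minus fresh frozen, for the 6 tested enzymes, with the limma estimate and its SE (black) and the 4 single differences between 1 library of each group (blue ticks). Dpp4 lies on the negative side at -0.71, Anpep has pairings on both sides of 0, and the other 4 genes lie on the positive side.

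None of the genes in the lists of other enzymes passed the threshold either. There were 0 of 5 tested membrane peptidases, 0 of 4 membrane hydrolases, 0 of 11 intracellular peptidases and 0 of 1 pancreatic enzyme. Their medians of the same difference were 0.27, -0.015, 0.044 and 0.0028. With an unadjusted limma p under 0.05 there were 1, 1, 2 and 0 of them, where 18.4% of all genes had one. Mgam differed by -0.52 (SE 0.113, limma adjusted p = 0.126), in the direction of Dpp4, while its neighbour Mgam2-ps differed by 0.097 (SE 0.106, limma adjusted p = 0.636).

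Markers of other cell types, and of colon, were compared between groups in the same fit, and their part in the differences above was not tested. None of them passed a limma adjusted p of 0.05. With an unadjusted limma p under 0.05, against 18.4% of all genes, there were 8 of 10 tested endothelial, 8 of 8 smooth muscle, 4 of 7 macrophage, 2 of 4 plasma cell, 2 of 10 fibroblast, 1 of 4 pericyte, 5 of 16 colon and 0 of 10 epithelial markers, each of them higher in RVC. Of 10 endothelial markers, 7 reached 1 FPKM in every library and 0 were listed at 0, and their sum was 33.4 and 32.0 FPKM in RVC against 18.4 and 21.3 FPKM in fresh frozen. Pecam1, the most abundant, was at 7.96 FPKM, below Ace, and Egfl7 was at 3.95 FPKM. Smooth muscle markers (8 of 8 at 1 FPKM) summed to 1116 and 1669.6 FPKM in RVC and to 686 and 735 FPKM in fresh frozen, with Actg2 at 288 and Acta2 at 263 FPKM. Macrophage markers (7 of 8, with C1qa at 12.7 and C1qb at 11.0 FPKM) summed to 57.6 and 59.2 FPKM in RVC against 45.1 and 36.7 FPKM. Plasma cell markers (4 of 6, with Igkc at 372 and Jchain at 84.1 FPKM) summed to 685 and 626 FPKM against 296 and 436 FPKM. Sums overlapped between groups for pericyte markers (4 of 7, led by Rgs5 at 18.7 and Abcc9 at 3.62 FPKM), which ran from 23.0 to 28.3 FPKM. They did not overlap for fibroblast markers (10 of 10, with Dcn at 90.5 and Col3a1 at 57.8 FPKM), at 242 and 289 FPKM in RVC and 238 and 239 FPKM in fresh frozen. The epithelial sum overlapped, at 6559.8 and 6392 FPKM in RVC and 7154 and 5319 FPKM in fresh frozen. The colon sum did not, at 7726 and 6706 FPKM in RVC and 6331 and 5292 FPKM in fresh frozen, with 13 of 16 tested colon genes higher in RVC and a median difference of 0.27. That list thus stood on the same side as 5 of the 6 enzymes, but so did most other marker lists. Higher in RVC were 10 of 10 tested endothelial, 8 of 8 smooth muscle, 4 of 4 plasma cell and 6 of 7 macrophage markers. Among epithelial and fibroblast markers it was 8 of 10 each, and among pericyte markers 2 of 4. The median difference over all genes was 0.0075. Relative to villin (Vil1), a microvillus protein gene, Dpp4 stood at 0.0278 and 0.0285 in RVC and at 0.0526 and 0.0624 in fresh frozen. Vil1 itself was at 234 and 201 FPKM in RVC and at 196 and 176 FPKM in fresh frozen. Division by Vil1 could therefore only widen the gap of Dpp4, so the ratio is no check on that gap. Mep1a over Vil1 was 0.741 and 0.913 in RVC and 0.719 and 0.674 in fresh frozen.

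For each tested enzyme the genes of all lists with the most similar course over the 4 libraries were found by the root mean square difference of their deviations from their own mean, on the log2 scale, among 116 genes. Nearest to Ace were the epithelial genes Krt20 (0.0355) and Vil1 (0.0429). Nearest to Enpep were the endothelial gene Vwf (0.028) and Cndp2 (0.0787), and nearest to Mep1a were Egfl7 (0.0671) and Cd68 (0.0855). Mep1b lay nearest to the peptidase genes Dpp3 (0.0344) and Dpp7 (0.0485), and Anpep to Npepps (0.0785) and Abcc9 (0.0795). Dpp4 had no gene as near, with Mgam at 0.123 and Lnpep at 0.182. This measure grows with the size of the deviations, and those of Dpp4, from -0.43 to 0.41, were the largest of the tested enzymes. With 4 libraries such a likeness is a description of these samples only.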

How the data were processed

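Per the labels' protocols, ribosomal RNA was depleted and 150-bp read pairs were sequenced. Per the submitters' processing notes, TopHat2 2.1.1 and Cufflinks 2.2.1 were used with GRCm39. Annotation release and strand setting are not given in the sources used here. Per the file headers, the authors deposited transcript FPKM with confidence bounds, and coverage, a signal of reads per base.

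Gene FPKM was summed over transcripts. The limma 3.58.1 test (R 4.3.3, mean-variance trend, two-sided, Benjamini-Hochberg, 0.05) used log2 values of FPKM deposited by the authors, scaled by median ratio, with a pseudocount of 1. Genes needed a mean of 1, a transcript of 300 nt and status OK. The fit was tested on simulated data. A permutation test of 2 against 2 cannot go below p = 0.333. Levels are deposited FPKM.

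The 9 genes and the lists were chosen with earlier results of these data known. Named from each list were the 3 (for markers, 2) most abundant genes, and a few genes of the lists, though counted, are not reported here by name. Other genes, such as those at 0, were picked with their values in view. Alternatives are given at the end. All 35 transcripts matched GENCODE vM39 identifiers, though some starts differ. Protein sequences were not used here. Anpep, Ace and Dpp4 overlap exons of genes on the opposite strand.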

Additional observations from a re-analysis of the deposited data

How the results depend on the processing

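None of the 6 tested enzymes passed the threshold under any of 76 combinations of enzyme and alternative, with limma adjusted p-values from 0.0786 (Dpp4 with the replicate block) to 0.985. All kept their direction except Anpep, whose difference of 0.12 ran from -0.014 without fresh frozen replicate 1 (limma adjusted p = 0.979) to 0.26 without fresh frozen replicate 2, with 0.24 without RVC replicate 1 and 0.012 without RVC replicate 2. Others moved by over 1.5 times in size: Mep1b, at 0.18, was 0.042 without fresh frozen replicate 1 and 0.32 without fresh frozen replicate 2, Ace, at 0.28, was 0.17 without fresh frozen replicate 2, and Enpep, at 0.44, was 0.70 with a pseudocount of 0.1. For Dpp4 the limma adjusted p ran up to 0.402, and for Mep1a from 0.115 to 0.402. The kept directions say little about stability. For the 5 genes whose groups did not overlap, leaving out 1 library could hardly reverse the sign. Changing only the filter on low values, the status rule, the block or the trend leaves the difference itself as it was.

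The count of genes past the threshold, 5, became 0 without a filter on low values (3531 at an unadjusted p under 0.05), 0 without a trend (2468 unadjusted), 2 with a minimum mean of 5 FPKM and 89 with the replicate block. The labels do not say that same-numbered libraries are paired. With 2 libraries a group their deviations give a single correlation across genes, -0.134, which cannot settle it. A crossed replicate block, added after seeing the data, gave 43. Leaving out 1 library gave 8 (without RVC 2) to 58 (without RVC 1), with 37 without fresh frozen 1 and 21 without fresh frozen 2. The count of transcripts, 1, became 0 without a filter (9163 unadjusted), 6 with a minimum mean of 5 FPKM, 7 without a length minimum and 0 without any 1 library (2153 to 3025 unadjusted, limma). The cause was not tested.

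The count of 6 genes at 1 FPKM in every library was 5 from the most abundant transcript alone, 4 at a level of 5 FPKM and 6 under the other alternatives tried. By construction, the most abundant transcript alone gave lower means of 86.5 for Mep1a, 51.0 for Mep1b, 8.72 for Ace, 5.58 for Dpp4 and 1.17 for Anpep. Rescaling every library to the same sum over transcripts of at least 300 nt gave 221 for Mep1a, 82.1 for Mep1b, 17.1 for Ace, 11.9 for Dpp4, 2.77 for Anpep, 2.15 for Enpep and 0.598 for Alpi. Mean levels without 1 library stayed within 1 SD, which with 4 libraries holds for any values. Depth limits Sis and Lct, whose bounds reach 0 in at least 1 library.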

Other observations

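Relatives of the enzymes by protein family were measured as well. Of 28 with rows in the files, 15 reached 1 FPKM in every library and 3 were listed at 0. The most abundant were Ganab, the glucosidase II gene of the endoplasmic reticulum, at 33.1 ± 1.71 FPKM, Mgam at 28.9 ± 6.39 FPKM and Npepps at 27.3 ± 2.12 FPKM (SD, n = 4 each). Of 17 tested, 0 passed an adjusted p of 0.05 in limma. An unadjusted limma p under 0.05 was reached by 18.4% of all genes, and 8.92% did so lower in RVC. Of the 17, 2 reached it, both lower in RVC. These were Mgam and the M1 aminopeptidase gene Lnpep, the latter at 23.8 and 23.4 FPKM in RVC and 29.4 and 32.0 FPKM in fresh frozen.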
